A study of Mus musculus with 6 samples.

Results

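A set of 10 genes of immune checkpoint ligands, phagocytosis signals and adenosine-producing enzymes were followed through 6 mouse tumour libraries. They were chosen by gene symbol, and each was found once among the 23183 symbols of the deposited count tables. The tumours were of UV2237M, a murine fibrosarcoma line (a tumour of connective tissue cells) labelled wild type. The untreated group had 3 tumours with no treatment. The treated group had 3 tumours that received GNC, the gold nanoclusters of the series title, at days 1 and 7 with near-infrared (NIR) irradiation, a combination used to heat tissue with light. Among the samples given here, no group received the particles without light or the light without particles. The labels give neither the host nor the time from the last treatment to harvest. They do not state whether each tumour grew in its own animal, so p-values cover the spread between these samples only.

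Checkpoint ligands are surface or secreted proteins through which a tumour cell or a myeloid cell restrains an immune cell. *Cd274* codes for PD-L1, the ligand of the receptor PD-1, *Cd276* for B7-H3, *Pvr* for CD155, which binds TIGIT, CD96 and the activating receptor CD226, and *Lgals9* for galectin-9, a sugar-binding protein reported to bind TIM-3. CD80 and CD86, made mainly by antigen-presenting cells, engage the activating CD28 and the inhibitory CTLA-4. CD47 is a widely expressed "do not eat me" signal, read by SIRP-alpha (*Sirpa*) on macrophages. ATP released from stressed cells is cut to AMP by CD39 (*Entpd1*), and AMP is cut to adenosine, which dampens T cells, by CD73 (*Nt5e*), an enzyme common on mesenchymal cells.

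Upstream sequence is shown for *Nt5e*, *Entpd1* and *Lgals9*, the members whose treated and untreated values did not overlap, and for *Cd274*, whose product is the best-known ligand of the set. Each run is the 250 bases before a RefSeq start site (GRCm38.p6), read 5′ to 3′ on the gene's strand, with capitals at matches to the motifs named below. The *Nt5e* run lies inside the GENCODE span of that gene (88327197 to 88372092), so it is upstream of the RefSeq start only. The 3′ end of the *Lgals9* run overlaps the GENCODE span of its gene (78962974 to 78984946).
Nt5e, chr9:88327359-88327608, plus strand: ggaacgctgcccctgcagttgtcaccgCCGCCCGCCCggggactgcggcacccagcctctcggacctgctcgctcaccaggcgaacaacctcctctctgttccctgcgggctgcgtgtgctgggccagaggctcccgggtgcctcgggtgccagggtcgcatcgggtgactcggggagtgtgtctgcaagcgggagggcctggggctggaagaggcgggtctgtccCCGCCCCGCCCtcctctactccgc
Entpd1, chr19:40612116-40612365, plus strand: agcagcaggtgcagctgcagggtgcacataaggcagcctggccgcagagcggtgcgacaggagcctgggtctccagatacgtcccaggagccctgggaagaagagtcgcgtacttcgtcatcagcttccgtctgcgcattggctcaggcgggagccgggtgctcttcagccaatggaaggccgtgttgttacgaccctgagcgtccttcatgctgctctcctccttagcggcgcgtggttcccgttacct
Lgals9, chr11:78984925-78985174, minus strand: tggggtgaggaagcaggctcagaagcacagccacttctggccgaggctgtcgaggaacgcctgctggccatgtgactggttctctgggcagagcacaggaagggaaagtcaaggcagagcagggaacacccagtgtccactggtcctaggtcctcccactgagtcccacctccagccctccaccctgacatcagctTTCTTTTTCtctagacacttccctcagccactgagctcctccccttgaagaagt
Cd274, chr19:29367188-29367437, plus strand: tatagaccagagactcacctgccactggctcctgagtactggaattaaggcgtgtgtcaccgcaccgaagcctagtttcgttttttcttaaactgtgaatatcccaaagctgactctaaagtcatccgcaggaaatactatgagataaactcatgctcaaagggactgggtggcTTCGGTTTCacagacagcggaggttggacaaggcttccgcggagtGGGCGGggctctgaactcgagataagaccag

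In all, 7 motifs were searched on both strands: GAS (TTCNNNGAA), the ISRE core (GAAANNGAA), AP-1 (TGANTCA), the HRE core (ACGTG), CRE (TGACGTCA), the E-box CACGTG, which contains the HRE core, and the GC box (GGGCGG). The *Nt5e* window held 4 GC boxes in 2 overlapping pairs and the *Cd274* window held 1, where 32.7% of 32841 mouse windows of this length hold at least 1. The *Lgals9* and *Cd274* windows held 1 ISRE core each, which 7.13% of windows hold; ISRE elements bind interferon-regulated factors. With 1 more A at the end of the core, the form searched first, *Lgals9* matched and *Cd274* did not, beside 2.98% of windows. None of the 7 was in the *Entpd1* window shown, and a second RefSeq start of that gene held none either. A match is a run of letters, and no factor binding was measured here.

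The deposited counts summed to between 4680295 and 8019294 per library. The members together took 2690 to 5489 counts per library, and the lowest single value was 3 counts, for *Cd80* in treated 1. Counts are given as CPM, counts scaled to library size, with TMM-scaled library sizes. Untreated 2 stood apart from the other 5 libraries, with a mean distance to them of 1.21 on the log2 CPM scale against 0.604 to 0.721. Low GC content of a gene's transcript went with high values in it. Of 5 equal GC bins of tested genes, the lowest had a median of 0.77 log2 relative to the other 5 libraries and the highest one of -0.79. Connective tissue markers were present in all libraries, with summed values of the 11 markers between 26498 and 40889.5 CPM. The lowest sum was that of untreated 2, and *Col1a1* was at 59.2 CPM in that library. The differences of the members are given with and without it, and those of other named genes without it where they moved by over 1.5 times.

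None of the 10 members passed the test between treated and untreated tumours (edgeR quasi-likelihood test, Benjamini-Hochberg adjusted p under 0.05), as none did of 12517 tested genes (0%). DESeq2 called 0 of 10 members where it called 0.313% of genes, and limma-voom called 0 of 10 and 0% of genes. All 10 members passed the filter on low counts. Of the members, 5 had a log2 fold change above 0 and 5 below 0 (49.9% and 50.1% of all tested genes), with a median of -0.01 beside -0.00098 for all genes. *Nt5e*, *Entpd1* and *Lgals9* had an unadjusted p under 0.05 by edgeR, 3 of 10 members where 8.17% of tested genes did. All 3 were lower in treated tumours, and 4.85% of tested genes were lower with such a p. Without untreated 2 the same 3 of 10 members had an unadjusted p under 0.05, where 18.4% of tested genes did. With all 6 libraries the groups did not overlap in these 3 members, as in 20.8% of tested genes.

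**Figure D1:**
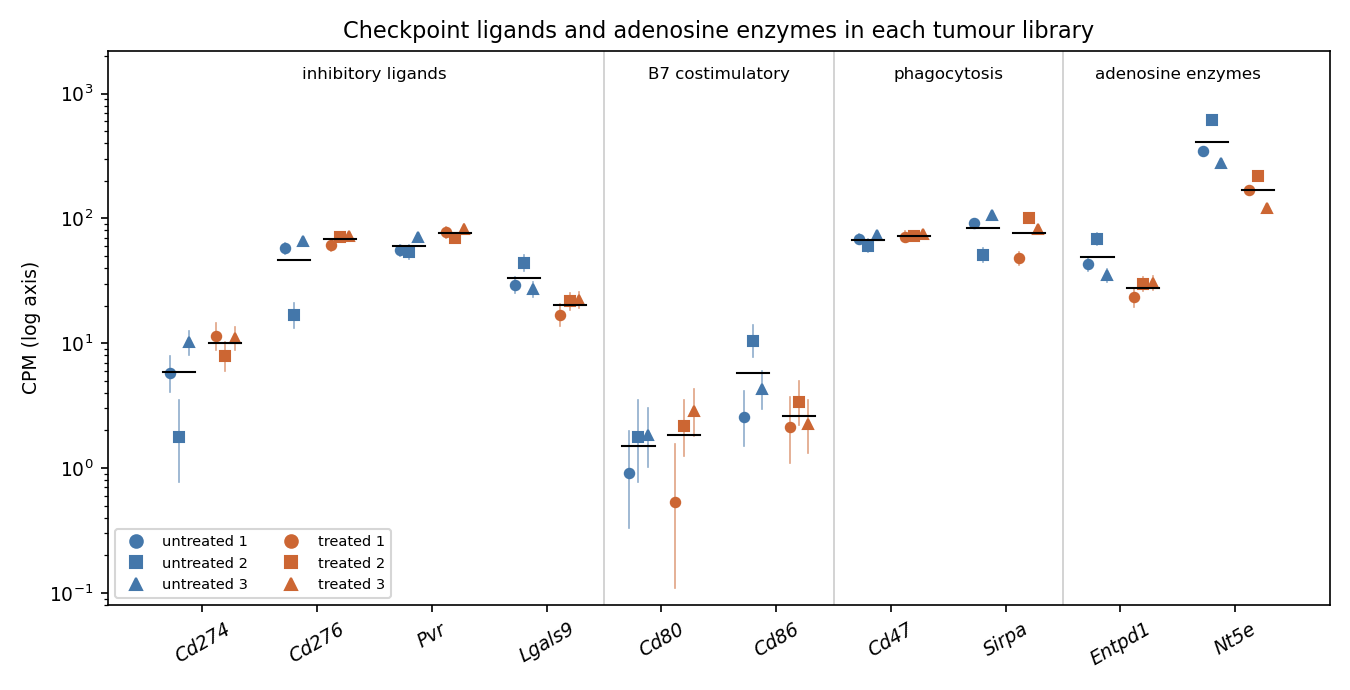
CPM (log axis) of each member in each library, untreated in blue and treated in orange, with symbols for the library number, vertical lines for the 95% Poisson interval of the count and black bars for group means. The treated points of Lgals9, Entpd1 and Nt5e lie below all untreated ones, and untreated 2 (blue square) is the lowest point of Cd274 and Cd276 and the highest of Cd86, Lgals9, Entpd1 and Nt5e.

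Levels were compared between genes as CPM per kilobase of the longest transcript. *Nt5e* was the highest member in all 6 libraries, at 103.1 ± 44.6 in untreated and 42.5 ± 12.3 CPM per kilobase in treated tumours (SD, n = 3). It did not overlap the next member in either group. In untreated tumours *Lgals9* (21.1 ± 5.87), *Sirpa* (20.9 ± 7.30) and *Pvr* (20.6 ± 3.21 CPM per kilobase) followed, with overlapping ranges. *Cd276* (12.98 ± 7.26), *Cd47* (12.8 ± 1.25) and *Entpd1* (11.6 ± 4.17 CPM per kilobase) overlapped one another as neighbours. *Cd86* (2.27 ± 1.64), *Cd274* (1.63 ± 1.16) and *Cd80* (0.475 ± 0.165 CPM per kilobase) were the lowest, each overlapping its neighbour. In treated tumours *Pvr* was second (26.4 ± 2.24 CPM per kilobase). There *Lgals9* (12.8 ± 1.84) came after *Cd47* (13.8 ± 0.309), and *Entpd1* (6.61 ± 0.936 CPM per kilobase) came after *Lgals9*. In the same tumours *Cd274* (2.79 ± 0.538) stood above *Cd86* (1.02 ± 0.275 CPM per kilobase) without overlap.

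**Figure D2:**
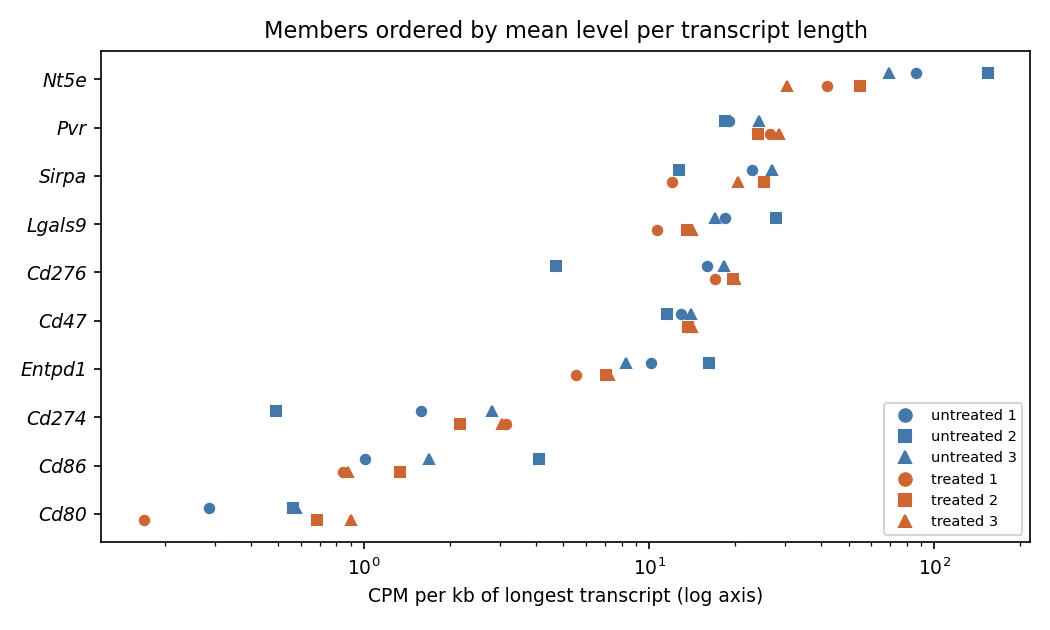
CPM per kilobase of the longest transcript (log axis) for the members, ordered by their mean over the 6 libraries, with untreated libraries in blue and treated ones in orange. Nt5e is at the top in every library, at 30.4 to 153.7, and Cd80 at the bottom of the order, at 0.169 to 0.899 CPM per kilobase.

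Of the adenosine enzymes, *Nt5e* (chromosome 9, 88327197 to 88372092, mm10, protein-coding) had 345.4, 613.9 and 276.5 CPM in untreated 1, 2 and 3, against 167.9, 219.5 and 121.6 CPM in treated 1, 2 and 3. Every treated value lay below every untreated one, and untreated 2 was far above the other libraries. The means were 411.9 ± 178.2 and 169.6 ± 49.0 CPM (SD, n = 3). The log2 fold change was -1.28 ± 0.37 (SE), with a 95% interval of -2.15 to -0.41, an unadjusted p of 0.0103 and an adjusted p of 0.592 by edgeR. Without untreated 2 it was -0.88 ± 0.23, with an adjusted p of 0.227 by edgeR. DESeq2 on those 5 libraries, a test chosen after seeing the data, gave an adjusted p of 0.0247, against 0.15 with all 6. In that fit it called 105 genes higher and 127 lower, of 18110 genes with a p-value, some of which had no adjusted p.

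*Entpd1* (chromosome 19, 40612366 to 40741602), the enzyme upstream of CD73, had 42.7, 68.6 and 35.0 CPM in untreated 1, 2 and 3, against 23.4, 29.9 and 30.5 CPM in treated 1, 2 and 3. The groups did not overlap, and the gap between treated 3 and untreated 3 was small beside the spread of the untreated tumours. For *Entpd1* the difference was -0.80 ± 0.29 log2 (95% interval -1.49 to -0.11, adjusted p 0.592 by edgeR), and -0.48 ± 0.16 without untreated 2 (adjusted p 0.239). The log2 ratio of *Entpd1* to *Nt5e* counts was -3.01, -3.16 and -2.98 in untreated and -2.84, -2.87 and -1.99 in treated 1, 2 and 3. It was higher in each treated library, by 0.48 on average (exact permutation test, 2-sided, p = 0.1, the smallest that 3 against 3 can give), and by 0.19 without treated 3.

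The other genes of adenosine handling were taken as a list of 23, of which 17 were tested. Of these 8 were higher and 9 lower, 0 passed edgeR's test, and the median log2 fold change was -0.03. The smallest p in the list belonged to *Entpd2*, a related ectonucleotidase that mainly yields ADP. It had 7.39, 3.56 and 4.65 CPM in untreated and 1.96, 2.71 and 2.73 CPM in treated 1, 2 and 3. The groups did not overlap, and the difference was -1.07 ± 0.39 log2 (adjusted p 0.592 by edgeR). *Enpp1*, which hydrolyses ATP and cyclic GMP-AMP, had 3.32, 1.78 and 4.90 CPM in untreated and 3.75, 7.74 and 8.31 CPM in treated 1, 2 and 3, with overlap. Of the adenosine receptors, *Adora2a* had 15 counts in the untreated and 21 in the treated libraries together and was not tested by edgeR (adjusted p 0.894 by DESeq2). *Adora2b* had 5.43, 7.35 and 4.77 CPM against 3.92, 3.94 and 4.59 CPM, without overlap (log2 fold change -0.48 ± 0.31, adjusted p 0.628 by edgeR, and -0.30 ± 0.30 without untreated 2). The median of the list was 0.08 without untreated 2.

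Among the inhibitory ligands, *Lgals9* (chromosome 11, 78962974 to 78984946) had 29.3, 44.1 and 26.9 CPM in untreated 1, 2 and 3, against 16.9, 21.6 and 22.3 CPM in treated 1, 2 and 3. The treated tumours were lower without overlap, and untreated 2 was again the highest. The difference was -0.71 ± 0.26 log2 (95% interval -1.33 to -0.10, adjusted p 0.592 by edgeR), and -0.47 ± 0.17 without untreated 2 (adjusted p 0.24). For *Lgals9* and *Entpd1* the unadjusted p did not stay under 0.05 when any 1 treated library was left out, while for *Nt5e* it did in all 6 fits without 1 library.

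*Cd274* (chromosome 19, 29367455 to 29388095) had 5.73, 1.78 and 10.2 CPM in untreated 1, 2 and 3, against 11.4, 7.87 and 11.0 CPM in treated 1, 2 and 3. Untreated 2 rested on 8 counts, whose 95% Poisson interval was 0.769 to 3.51 CPM (intervals cover counting error only), and untreated 3 lay within the treated range. The log2 fold change was 0.74 ± 0.54 (95% interval -0.54 to 2.02, adjusted p 0.653 by edgeR). It was 0.33 ± 0.32 without untreated 2 and 1.39 without untreated 3, and the interval over all libraries included both no change and a 2-fold rise. Exons of *Cd274* overlap the gene model AC119228.1 on the other strand, and those of *Cd276* overlap *Gm10657*; the strand setting of the counting is not given.

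*Cd276* had 57.6, 16.9 and 65.7 CPM in untreated 1, 2 and 3, against 61.2, 70.8 and 71.9 CPM in treated 1, 2 and 3. The other 5 libraries lay within 1.25-fold of each other, and untreated 2 was far below them. The difference between treated and untreated tumours was 0.53 ± 0.46 log2 over 6 libraries, and 0.13 ± 0.13 without untreated 2 (95% interval -0.17 to 0.44, adjusted p 0.598 by edgeR). *Pvr* had 55.4, 53.7 and 70.6 CPM in untreated and 77.2, 69.9 and 82.9 CPM in treated 1, 2 and 3. Treated 2 lay just under untreated 3, so the groups overlapped, and the log2 fold change was 0.36 ± 0.20 (95% interval -0.12 to 0.83, adjusted p 0.607) by edgeR. That of *Pvr* without untreated 2 was 0.27 ± 0.14.

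**Figure D3:**
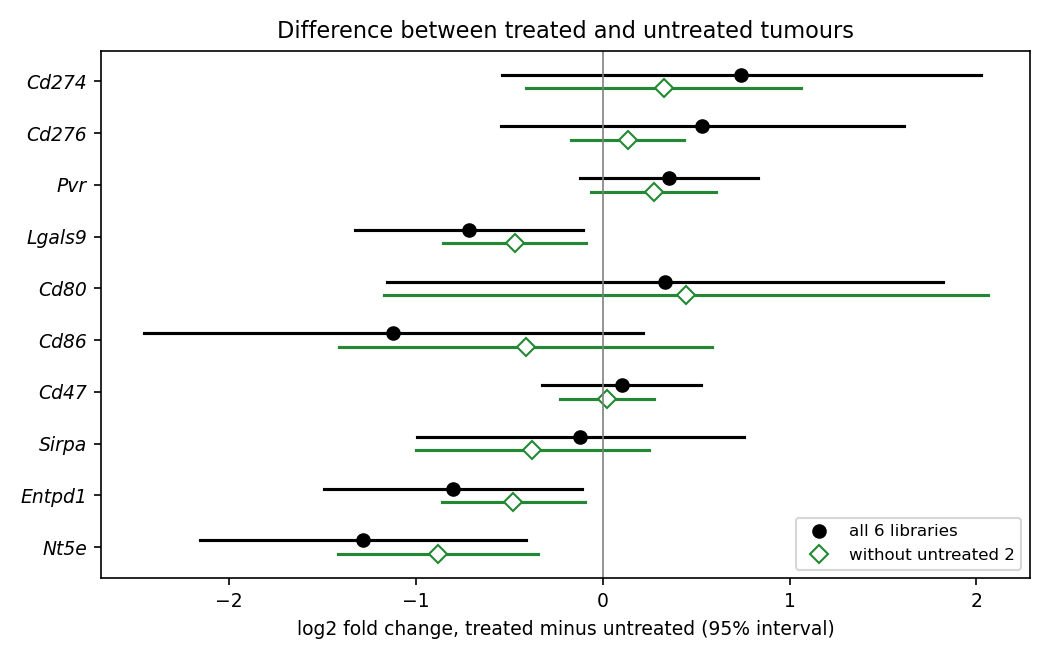
Log2 fold change (treated minus untreated) of each member with its 95% interval from edgeR, with all 6 libraries (black circles) and without untreated 2 (green diamonds). The intervals of Lgals9, Entpd1 and Nt5e lie below 0 in both fits before adjustment over genes, and the other intervals include 0.

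The position of each member in untreated 2, relative to the other 5 libraries on the log2 scale with 0.1 CPM added, was set beside the median gene of its GC bin. It had the sign of that median in 6 of the 10 members and the other sign in 4. In the lowest GC bin, where the median was 0.77, *Cd86* (43.2% GC) was at 1.85, *Cd80* (42.7%) at 0.30 and *Cd47* (42.2%) at -0.24. In the bin with a median of 0.20, *Entpd1* (44.7%) was at 1.11 and *Cd274* (44.9%) at -2.27. *Nt5e* (48.0%) was at 1.53 and *Pvr* (48.6%) at -0.39, beside a median of -0.15. *Lgals9* (51.8%) was at 0.94 and *Sirpa* (54.2%) at -0.70, beside -0.43, and *Cd276* (56.2%) was at -1.94 beside -0.79. The members of other sign were thus *Cd274*, *Cd47*, *Nt5e* and *Lgals9*. With each library's trend with GC content and length removed, a setting chosen after seeing the data, the log2 fold changes were -1.40 for *Nt5e*, -0.75 for *Entpd1* and -0.75 for *Lgals9* (adjusted p 0.401 to 0.402 by edgeR).

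The list of other inhibitory ligands had 18 genes, 11 of them tested, with 5 higher, 6 lower, 0 past edgeR's test and a median log2 fold change of -0.04. *Tnfrsf14* (HVEM, a ligand of BTLA and CD160) had 9.66, 13.1 and 7.34 CPM in untreated and 3.03, 4.21 and 2.48 CPM in treated 1, 2 and 3, without overlap. Its log2 fold change was -1.62 ± 0.36, with an adjusted p of 0.592 by edgeR and 0.0664 by DESeq2. *Pvrl4* (nectin-4) had 5.73, 4.01 and 1.96 CPM against 1.43, 1.49 and 0.868 CPM, also without overlap. In the other direction *Lgals3* (galectin-3) had 94.8, 180.6 and 130.4 CPM in untreated and 202.3, 177.9 and 246.1 CPM in treated 1, 2 and 3. *Pvrl2* (nectin-2, which shares receptors with CD155) had 27.9, 13.6 and 35.5 CPM against 33.7, 37.1 and 42.4 CPM. Both overlapped between the groups, with log2 fold changes of 0.63 ± 0.28 and 0.55 ± 0.35. Without untreated 2 that of *Pvrl2* was 0.24 ± 0.16, *Lgals3* no longer overlapped, and the median of the list was 0.11.

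The receptors PD-1, TIGIT, CD96, CD226, TIM-3, CD28 and CTLA-4 are given because they bind members and not for their values. Except for *Tigit* and *Havcr2* (TIM-3), they had 16 counts or fewer over the 6 libraries together. *Tigit* had 75 counts, and *Havcr2* had 8.46 to 11.2 CPM in each library. *Pdcd1* (PD-1) had 2 counts in the untreated and 3 in the treated libraries together, *Ctla4* had 2 and 3, *Cd28* 10 and 6, *Cd226* 5 and 0, and *Cd96* 2 and 0. *Tigit* had 8, 1 and 8 counts in untreated and 8, 18 and 32 counts in treated 1, 2 and 3, or 1.21, 0.223 and 0.979 CPM against 1.43, 2.44 and 3.97 CPM. The treated values were above the untreated ones, but the gene did not pass edgeR's filter and was not tested by edgeR. DESeq2 gave it a log2 fold change of 1.64 with an adjusted p of 0.461. Markers of T cells were as low, with 1 of 11 tested, *Cd3e* at 0 in every library and a summed level of 3.12 to 8.90 CPM in untreated and 2.32 to 6.08 CPM in treated tumours. Of 7 tested genes in the whole receptor list 3 were higher and 4 lower, 0 passed, and the median log2 fold change was -0.07. Those with the smallest p in each direction were *Cd44*, an adhesion receptor (295.4 ± 119.3 CPM in untreated, 373.7 ± 52.1 in treated tumours), and *Tnfrsf9* (5.11 ± 2.90 against 3.77 ± 1.11 CPM). Their log2 fold changes were 0.34 and -0.45, and 0.69 ± 0.18 and -0.77 ± 0.39 without untreated 2, where the median of the list was -0.21.

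The B7 ligands of CD28 and CTLA-4 were the members with the fewest counts. *Cd86* had 2.57, 10.5 and 4.28 CPM in untreated 1, 2 and 3, against 2.14, 3.39 and 2.23 CPM in treated 1, 2 and 3, on 12 to 47 counts. The groups overlapped, and the untreated mean was carried by untreated 2. Treated tumours differed by -1.12 ± 0.57 log2 (95% interval -2.46 to 0.22, adjusted p 0.592 by edgeR), and -0.41 ± 0.43 without untreated 2. *Cd80* had 6, 8 and 15 counts in untreated and 3, 16 and 23 counts in treated 1, 2 and 3, or 0.905, 1.78 and 1.84 CPM against 0.535, 2.17 and 2.85 CPM. The treated tumours held both the lowest and the highest values. Its log2 fold change was 0.33 ± 0.63 (95% interval -1.15 to 1.82), a range that covers a 2-fold change in either direction, with 0.44 ± 0.70 without untreated 2 and -0.11 without treated 3. The log2 ratio of *Cd86* to *Cd80* was 1.43, 2.48 and 1.20 in untreated and 1.84, 0.63 and -0.35 in treated 1, 2 and 3 (difference -0.996, exact permutation test, 2-sided, p = 0.3; -0.47 without treated 3, -0.61 without untreated 2 and -1.56 without treated 1).

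Of the other costimulatory ligands, a list of 10 with 9 in the tables, 4 were tested, 1 was higher and 3 lower, and 0 passed, with a median log2 fold change of -0.53. *Cd48* had 3.32, 8.91 and 4.90 CPM in untreated and 1.61, 4.48 and 3.10 CPM in treated 1, 2 and 3. *Cd40*, an activating receptor of antigen-presenting cells, had 4.07, 7.12 and 3.55 CPM against 1.96, 4.89 and 1.74 CPM. *Tnfsf9* (4-1BB ligand) had 6.76 ± 0.824 CPM in untreated and 7.38 ± 3.35 in treated tumours. In all 3 genes the groups overlapped. The log2 fold changes of *Cd48* and *Cd40* were -0.86 and -0.75, and -0.42 ± 0.47 and -0.41 ± 0.51 without untreated 2. That of *Tnfsf9* was 0.13, and 0.08 ± 0.39 without it.

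The phagocytosis signal *Cd47* had the smallest spread of the members, with 68.1, 60.6 and 73.7 CPM in untreated 1, 2 and 3, against 71.4, 71.7 and 74.3 CPM in treated 1, 2 and 3. The highest library was 1.23 times the lowest. The log2 fold change was 0.10 ± 0.18 (95% interval -0.32 to 0.53, adjusted p 0.842 by edgeR) and 0.02 ± 0.11 without untreated 2 (95% interval -0.23 to 0.28). Its receptor *Sirpa* had 91.3, 50.8 and 107.1 CPM in untreated and 47.8, 100.4 and 81.5 CPM in treated 1, 2 and 3. One library of each group, untreated 2 and treated 1, was low, and the groups overlapped. The log2 fold change of *Sirpa* was -0.12 ± 0.37 (95% interval -0.99 to 0.76, adjusted p 0.918 by edgeR), -0.37 without untreated 2 and 0.13 without treated 1. The log2 ratio of *Cd47* to *Sirpa* was -0.42, 0.25 and -0.54 in untreated and 0.58, -0.49 and -0.13 in treated 1, 2 and 3 (difference 0.22, exact permutation test, 2-sided, p = 0.6, with 0.47 without untreated 2, 0.46 without treated 2, 0.13 without untreated 1, 0.070 without untreated 3 and -0.074 without treated 1).

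Other phagocytosis genes, a list of 22 with 20 tested, were higher in 9 and lower in 11, 0 passed, and the median log2 fold change was -0.06. *Fcgr2b*, the inhibitory Fc receptor, had 57.6, 70.1 and 75.5 CPM in untreated and 30.1, 39.6 and 38.6 CPM in treated 1, 2 and 3. *Fcgr1*, the high-affinity Fc receptor and also one of the macrophage markers used below, had 17.5, 25.8 and 22.3 CPM against 8.92, 14.1 and 14.4 CPM. Neither overlapped, and the log2 fold changes were -0.91 ± 0.21 and -0.80 ± 0.28 (adjusted p 0.592 by edgeR, and 0.0673 and 0.346 by DESeq2). In the other direction *Mfge8*, a bridge to dying cells, had 104.4, 63.7 and 89.2 CPM in untreated and 123.8, 109.7 and 137.9 CPM in treated 1, 2 and 3. Its log2 fold change was 0.53, and 0.35 ± 0.13 without untreated 2, where the median of the list was -0.28. *Pros1*, a ligand of the TAM receptors, had 33.9 ± 5.55 against 43.4 ± 12.8 CPM.

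*Cd274* is a target of interferon gamma signalling, and a list of 20 genes of that axis was given beside it. Of 17 tested, 4 were higher and 13 lower, 0 passed, and the median log2 fold change was -0.21. *Ifng* itself had 2 counts over the untreated and 0 over the treated libraries. *Socs3*, a feedback inhibitor of STAT signalling, had 37.6, 38.3 and 63.9 CPM in untreated and 73.1, 90.3 and 129.8 CPM in treated 1, 2 and 3 (log2 fold change 1.07 ± 0.32, adjusted p 0.592 by edgeR). *Ciita*, the activator of MHC class II genes, had 5.73, 7.35 and 4.16 CPM against 0.892, 2.31 and 2.73 CPM. *Irf1*, a transcription factor known to act on *Cd274*, and *Ifngr1*, a receptor chain, were the others with an unadjusted p under 0.05 and were named after their values were seen. *Irf1* had 133.9, 266.7 and 118.8 CPM in untreated and 93.1, 104.1 and 72.1 CPM in treated 1, 2 and 3, and *Ifngr1* had 43.5, 82.4 and 39.7 against 31.4, 35.2 and 29.3 CPM. The log2 fold changes were -0.95 for *Irf1* and -0.78 for *Ifngr1*, and -0.50 ± 0.16 and -0.38 ± 0.14 without untreated 2 (adjusted p 0.236 and 0.24 by edgeR).

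Macrophages are a known source of *Entpd1*, *Lgals9*, *Cd86* and *Sirpa* RNA, and their markers were set beside the members. Of 13 markers, all tested and none at 0 in all libraries, 9 were lower and 4 higher in treated tumours, and 0 passed. Of these 9, 6 had an unadjusted p under 0.05 by edgeR, *Csf1r*, *C1qa*, *C1qb*, *C1qc*, *Fcgr1* and *Adgre1*, named after their values were seen. Of all tested genes 4.85% were lower with such a p. Of the 4 higher markers, 0 had such a p. The markers summed to 1327, 2814 and 1764 CPM in untreated and 799, 1533 and 1194 CPM in treated 1, 2 and 3, so treated 2 lay above untreated 1 and untreated 2 was the highest. In bulk tumour RNA fewer cells of a type and less RNA per cell cannot be told apart.

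Per 1000 CPM of these markers, a scale chosen after seeing the data, *Entpd1* had 32.2, 24.4 and 19.8 in untreated and 29.3, 19.5 and 25.6 in treated 1, 2 and 3. *Lgals9* had 22.1, 15.7 and 15.3 against 21.2, 14.1 and 18.7, and *Cd86* had 1.93, 3.72 and 2.43 against 2.68, 2.21 and 1.87. On this scale the groups overlapped in all 3, with means of 25.5 ± 6.25 and 24.8 ± 4.93 for *Entpd1* and of 17.7 ± 3.82 and 18.0 ± 3.62 for *Lgals9* (SD, n = 3, untreated first). *Nt5e* had 260.4, 218.1 and 156.7 in untreated and 210.1, 143.2 and 101.8 in treated 1, 2 and 3, with means of 211.7 ± 52.1 and 151.7 ± 54.6, and overlapped too. The groups also overlapped in *Sirpa*, at 68.8, 18.0 and 60.7 in untreated and 59.8, 65.5 and 68.3 in treated 1, 2 and 3, and in 8 of the 10 members in all. In *Cd276* and *Pvr* all treated values were above the untreated ones on this scale, 2 of 10 members where 19.0% of tested genes did so. The divisor tended to be lower in treated tumours, which raises treated values against untreated ones for every gene alike. Of 2420 tested genes without overlap on this scale, 2374 had the treated values above. *Cd276* had 43.5, 6.01 and 37.3 against 76.6, 46.2 and 60.3, and *Pvr* had 41.7, 19.1 and 40.0 against 96.7, 45.6 and 69.4. Leaving out untreated 2 cannot bring an overlap where there was none, so it is no further check on these 2 members. The part of macrophage content in the differences of the members was not tested. Dendritic cell markers, another known source of CD80 and CD86, had 4 of 10 tested and summed to 16.3 to 25.7 CPM in untreated and 12.3 to 20.5 CPM in treated tumours.

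**Figure D4:**
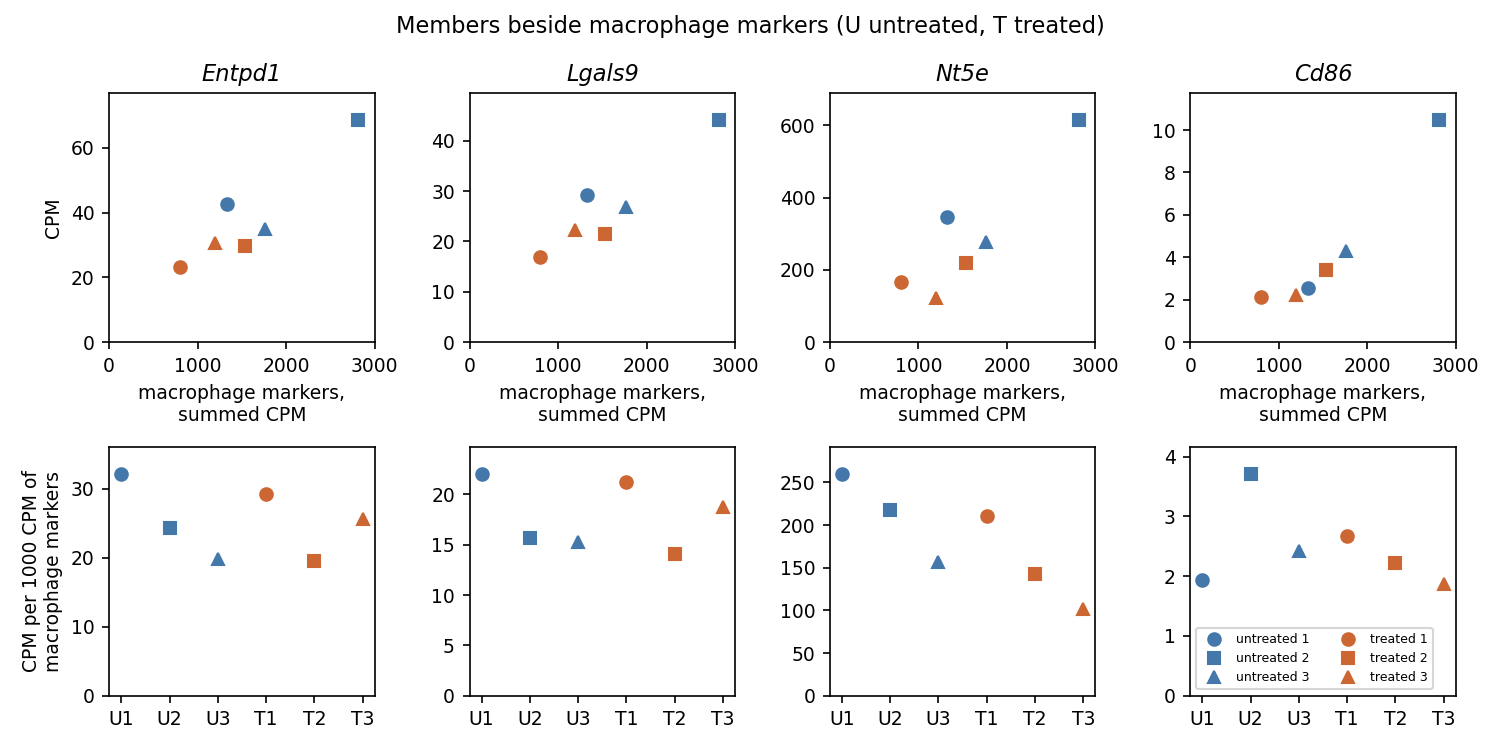
Top row, CPM of Entpd1, Lgals9, Nt5e and Cd86 in each library against the summed CPM of 13 macrophage markers. Bottom row, the same genes per 1000 CPM of those markers (U untreated, T treated). Untreated 2 is highest on both axes of the top row, and in the bottom row treated and untreated points overlap for these 4 genes.

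For the 2 members with the smallest p, the 3 tested genes with the most similar pattern over the 6 libraries were sought among 10881 genes with at least 5 CPM, by the mean absolute difference of log2 CPM centred on each gene's mean. For *Nt5e* they were *Plag1*, *Crebl2* and *Sdc2*, at differences of 0.06, 0.07 and 0.08. *Sdc2*, a heparan sulphate proteoglycan of the cell surface, had 328.4, 658.8 and 274.4 CPM in untreated and 161.4, 179.3 and 112.8 CPM in treated 1, 2 and 3. For *Lgals9* they were *Rnf103*, *Entpd1* and *Acadsb*, at 0.06, 0.07 and 0.07, so another member was among its 3 nearest genes. All 6 share the high value in untreated 2, which weighs heavily in a measure over 6 libraries.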

How the data were processed

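Total RNA was extracted with Trizol and made into strand-preserving libraries, per the labels' protocols. TopHat, with no version, and build mm10 are named in the submitters' processing notes; which program counted reads, with which annotation and strand setting, is not given in the sources used here. The authors' files hold raw counts for each gene symbol, 1 deposited table per sample, and were used as they stand. Groups were taken from the sample titles.

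With edgeR 4.0.16 (R 4.3.3), genes were filtered with filterByExpr at a minimum count of 10, scaled with TMM and compared by the quasi-likelihood test, 2-sided, with Benjamini-Hochberg adjustment over 12517 genes at a threshold of 0.05. The SE is the log2 fold change divided by the root of F. CPM used the TMM library sizes. Ratios added 0.5 counts to each gene. Alternatives were other scalings, DESeq2 1.42.0, limma-voom (limma 3.58.1), other filters, each library left out, the label number as a block, and, added after seeing the data, a loess correction (span 0.3) for GC content and length and DESeq2 without untreated 2. The fits were tested on simulated counts. All pairs of libraries differed by more than sampling noise (chi-square per gene 5.64 or more).

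Transcript lengths, GC content and coordinates are from GENCODE M21 (mm10); 22148 symbols matched by name and 674 by a RefSeq synonym. Upstream sequences are RefSeq's (GRCm38.p6); 7 of the 10 members had one, all but *Pvr*, *Cd86* and *Sirpa*. Members and gene lists were chosen with earlier results of these data known. The members are all named; from each pathway list the text names the 2 tested genes of smallest p and at most 2 that differed the other way. Receptors are named for binding members. Marker lists for T, B, NK, dendritic and mast cells, macrophages, neutrophils, endothelium, mesenchyme, keratinocytes and skeletal muscle were measured. Depth limits low genes: 3 counts are 0.367 to 0.668 CPM.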

Additional observations from a re-analysis of the deposited data

How the results depend on the processing

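Members called by edgeR stayed at 0 under the other scalings, filters and fits without 1 library, and by limma-voom and DESeq2 on all libraries. DESeq2 without untreated 2, with only untreated 1 and 3 in that group, called 1, *Nt5e*, at a log2 fold change of -0.87. *Nt5e* was among 232 called of 18110 genes with a p-value in that fit. *Cd274*, *Cd80* and *Cd86* had no adjusted p there, so they could not be called. Over all genes edgeR called 0, DESeq2 45 and DESeq2 without untreated 2 232, and edgeR without 1 library called 0 to 4, the 4 without untreated 3; the cause was not tested. The direction of 8 of the 10 members held in every alternative run. Over the fits without 1 library *Cd80* ran from -0.11 (without treated 3) to 0.73, and *Sirpa* from -0.37 to 0.13 (0.11 without untreated 3, 0.13 without treated 1). The log2 ratio of *Cd47* to *Sirpa* ran from -0.074 to 0.47 over the fits without 1 library. *Nt5e* ranged from -1.51 to -0.87 and *Cd86* from -1.49 to -0.41 over their alternatives. With 5 CPM as the filter *Cd80* and *Cd86* were not tested.

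With the label number as a replicate block, edgeR called 0 genes and 0 members, with a log2 fold change of -1.24 for *Nt5e* (unadjusted p 0.00374, adjusted p 0.578) and 0.99 for *Cd274*. No pairing by number was seen: deviations of same-numbered libraries from their group means correlated at -0.17, -0.13 and 0.06. With 3 libraries per group and untreated 2 apart from the rest, these values cannot exclude a pairing. Mean within-number ratio differences were -0.996 for *Cd86* to *Cd80*, 0.48 for *Entpd1* to *Nt5e* and 0.22 for *Cd47* to *Sirpa*. They equal the unpaired differences by construction, so they are no further check. An exact test that flips the sign of each within-number difference gave p = 0.5, 0.25 and 0.75 in that order (2-sided). Counts of 3 to 47 leave *Cd80* and *Cd86* with wide counting error.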

Other observations

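Marker lists of other cell types were measured beside the members. Neutrophil markers summed to 13.7, 19.4 and 46.9 CPM in untreated and 85.8, 36.2 and 82.5 CPM in treated 1, 2 and 3, and all 5 tested markers were higher in treated tumours. Mast cell markers summed to 50.3, 67.2 and 27.9 CPM in untreated and 18.9, 19.4 and 13.03 CPM in treated 1, 2 and 3, without overlap, and all 5 tested were lower. Endothelial markers summed to 100.7, 96.8 and 171.8 CPM against 137.4, 180.0 and 211.3 CPM, with 8 of 9 higher. Keratinocyte markers summed to 1276, 607 and 5.88 CPM in untreated 1, 2 and 3 and to 4.34 to 67.0 CPM in treated tumours. All 5 tested were lower, with a median log2 fold change of -4.14. Skeletal muscle markers summed to 103.2, 45.4 and 27.8 CPM in untreated and 27.3, 10.5 and 424.9 CPM in treated 1, 2 and 3. All 8 tested were higher, with a median log2 fold change of 1.51, but only treated 3 had a sum above the untreated ones. B cell markers (1.56 to 2.33 against 1.96 to 2.99 CPM) and NK cell markers (2.11 to 4.01 against 1.43 to 2.99 CPM) were close to the limit of detection. No marker of any of these lists passed edgeR's test over all genes, and how these cells bear on the members was not tested.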
